A study of Danio rerio with 4 samples.

Results

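Chaperones and protein folding factors were followed in zebrafish gastrula cells as 96 genes, of 8640 genes with at least 1 counted molecule. They were chosen by gene symbol: heat shock proteins, subunits of the TRiC and prefoldin complexes, J proteins, FKBP and cyclophilin prolyl isomerases, calreticulin, calnexin, protein disulfide isomerases, BAG proteins, PTGES3 and STIP1. A further 57 rows that match these symbols had 0 molecules in all libraries. The samples were cells of AB-strain embryos in mid to late gastrulation, 9 hours after fertilization (9 hpf). In one group the embryos carried scattered cells with β-catCA, a constitutively active β-catenin that switches on Wnt target genes, and in the other scattered cells with green fluorescent protein (GFP) as control. All 4 libraries hold the GFP-negative cells of these mosaics, sorted by fluorescence, with 2 lots from β-catCA mosaics and 2 from control mosaics. Which promoter drives the transgenes, and how many embryos make up a lot, the sources used here do not give. The comparison asks how cells without the transgene differ when some cells of the same embryo carry aberrant Wnt activity.

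Chaperones bind unfolded protein chains, keep them from clumping and let them fold. Hsp70 proteins work in cycles of ATP hydrolysis started by J proteins and reset by nucleotide exchange factors such as BAG proteins, and they pass clients on to Hsp90. TRiC is a ring-shaped chamber that folds actin and tubulin, which prefoldin delivers to it. Hsp60 and Hsp10 form a similar chamber in the mitochondrial matrix, and the endoplasmic reticulum (ER) has its own Hsp70, Hsp90, calreticulin, calnexin and disulfide isomerases. Many chaperones are made constantly in dividing cells, while a smaller set is switched on by heat shock factor when proteins misfold. Where a symbol is in capitals, the symbol table gives a zebrafish gene under a human-style name.

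The libraries were made by CEL-Seq2, which counts the 3′ end of each RNA molecule once through a unique molecular identifier (UMI). Counts therefore do not grow with gene length. Levels are given as CPM, the UMIs of a gene per 1000000 gene UMIs of its library, scaled by trimmed-mean (TMM) factors. Comparisons between different genes have limits. A 3′ count misses transcripts that end beyond the annotated gene, and reads of near-identical copies can be split or lost. Gene UMIs were 65098 and 8403 in β-catCA lots 1 and 2 and 61304 and 59260 in control lots 1 and 2. β-catCA lot 2 stands apart: the next smallest library is 7.05 times as deep, 35.8% of its counts were not aligned against 19.9% to 22.9% in the others, and 1 UMI in it is worth 124.5 CPM against 15.2 to 16.5 CPM elsewhere. The label of early embryonic cells was checked with marker genes. In this check 27 of 27 gastrula blastoderm genes had UMIs, and all 4 matched genes of blood had 0. Of 12 rows listed for the yolk syncytial layer 4 had UMIs, led by GATA6 with 5. The labels do not say whether lots are separate clutches; every p-value here reflects the spread between these libraries alone, which may be technical.

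The folding genes together held 2941 UMIs in β-catCA lot 1, 374 in β-catCA lot 2, 2820 in control lot 1 and 2930 in control lot 2. These are 4.52%, 4.45%, 4.60% and 4.94% of the gene UMIs, and the exact 95% binomial interval of the shallow lot runs from 4.02% to 4.91%. The total thus lay between 4.45% and 4.94% in all libraries. The intervals of β-catCA lot 1 (4.36% to 4.68%) and control lot 2 (4.77% to 5.12%) did not meet. Some of its parts, such as the Hsp70 class, differed more between libraries, and others, such as the ER class, did not stand apart. HSPB1, a small heat shock protein that holds unfolded chains, supplied 25.6% of all folding UMIs, and the 6 most abundant genes (HSPB1, HSPA8, HSPE1, ppiaa, HSPD1, HSP90AA1) supplied 64.1%. HSPB1 was the row with rank 4 among all genes of the table by UMIs, and HSPA8 had rank 18. At the other end, 45 of the 96 genes had under 10 UMIs over all libraries, 18 of them a single UMI, and 54 had 0 UMIs in β-catCA lot 2.

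Only 27 of the 96 genes had enough UMIs for the test across all genes (edgeR's quasi-likelihood test, 1071 genes tested), and these 27 held 93.9% of the folding UMIs. HSPA8 was the 1 gene of the 27 that passed, and it fell in the β-catCA mosaics. Over all tested genes 0.56% passed as lower and 0.28% as higher, together 0.84%. An unadjusted p under 0.05 was found for 6 of the 27 (HSPA8, HSPD1, CCT6B, HSPB1, PFDN2, HSP90AB1), or 22.2%, beside 10.5% of all tested genes. The fitted log2 difference, β-catCA mosaic minus control, was below 0 in 17 of the 27 and above 0 in 10, with a median of -0.14; over all tested genes 51.8% were below 0, with a median of -0.03. The CPM of the groups did not overlap in 13 of the 27 genes, 8 with both β-catCA lots below both controls and 5 with both above, beside 40.8% of all tested genes (23.6% below, 17.2% above). The genes were chosen with earlier results of these data known, so these shares are a description. Nor were the 27 matched for level, on which counting error depends, to all tested genes.

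**Figure D1:**
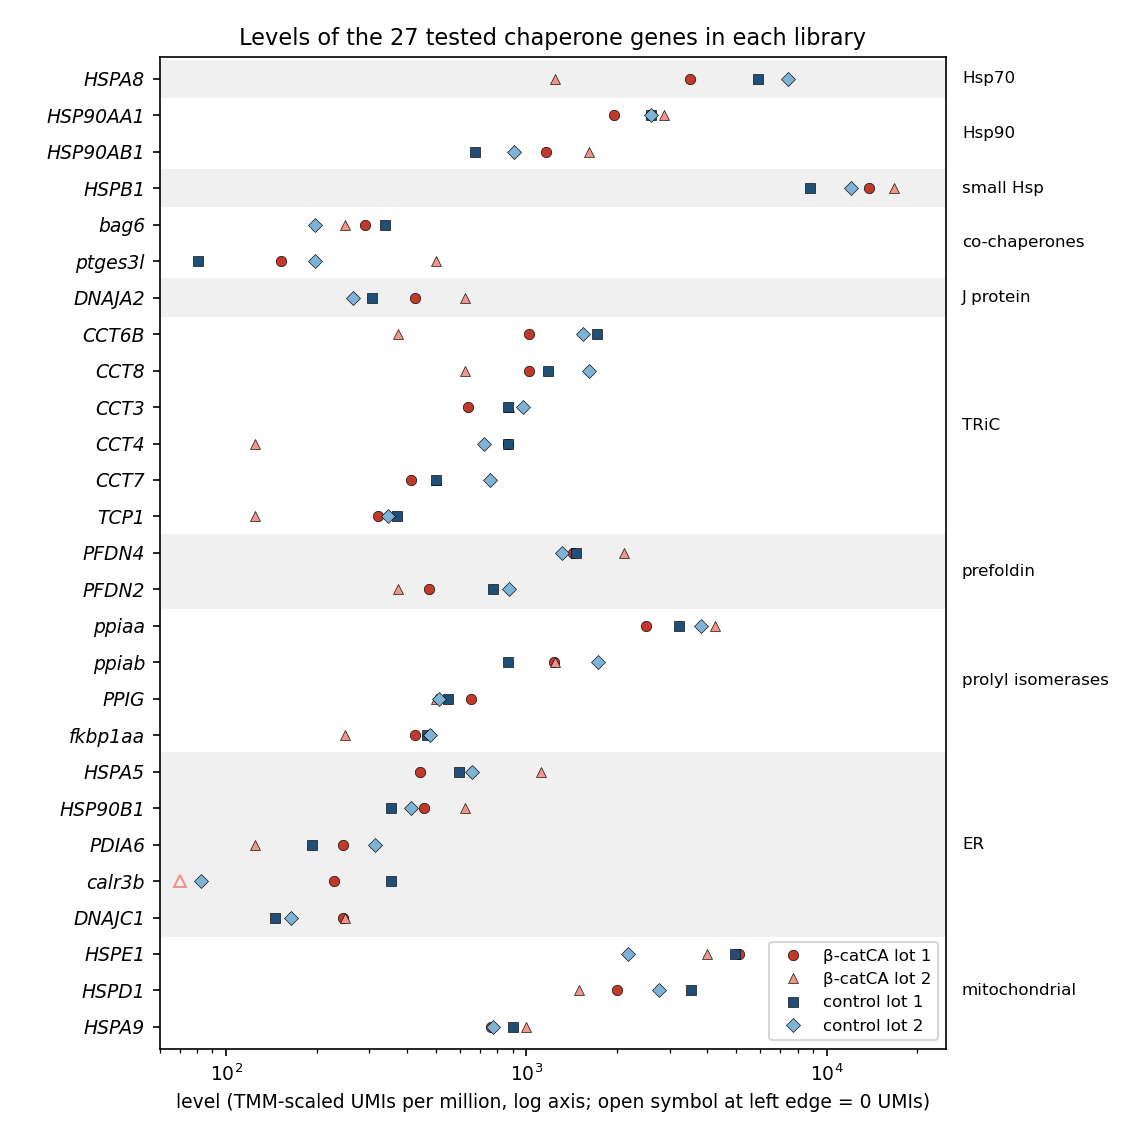
Level of each of the 27 tested folding genes in each of the 4 libraries, in TMM-scaled CPM on a log axis, grouped by class; an open symbol at the left edge stands for 0 UMIs. HSPA8 lies at 3507 and 1245 CPM in the β-catCA lots and at 5909 and 7426 CPM in the controls, and the shallow β-catCA lot 2 is the outermost point for many genes of low level.

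HSPA8 (ENSDARG00000068992) encodes the constitutive cytosolic Hsp70, a chaperone of newly made proteins that also strips clathrin from vesicles. It stood at 3507 and 1245 CPM in β-catCA lots 1 and 2, from 230 and 10 UMIs, and at 5909 and 7426 CPM in control lots 1 and 2, from 367 and 451 UMIs. Both β-catCA lots were below both controls. The exact 95% Poisson intervals, which cover counting error only, were 3069 to 3991 CPM in β-catCA lot 1 and 597 to 2289 CPM in β-catCA lot 2, so the pair also differed from each other by more than counting error, 2.82-fold. The lower control lot began at 5320 CPM. The fitted change was 2.41-fold lower, a log2 difference of -1.27 with a 95% interval from -1.82 to -0.72 (SE 0.27, edgeR adjusted p = 0.013). With single libraries left out the log2 difference ran from -2.44 without β-catCA lot 1 to -0.94 without β-catCA lot 2. Each of these fits leaves a single library in a group, and whether HSPA8 passed depended on the library left out. By limma-voom, on the same 1071 genes, HSPA8 was not called (adjusted p = 0.058). DESeq2, run without the UMI filter on 8640 genes, did not call it either (adjusted p = 0.995). With edgeR on those 8640 genes HSPA8 also did not pass (adjusted p = 0.77). The DESeq2 value thus differs from the reported fit in both method and gene set.

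**Figure D2:**
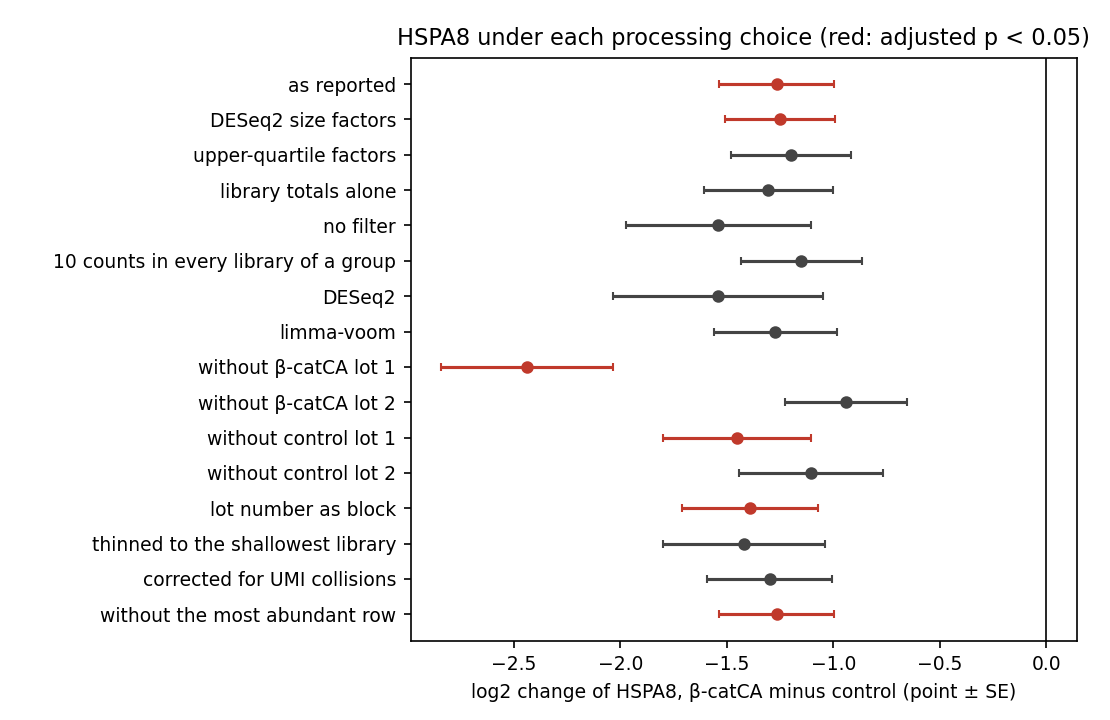
Fitted log2 difference of HSPA8, β-catCA minus control, with its SE, as reported and under 15 other processing choices; red points have an adjusted p under 0.05. All 16 points lie below 0, from -2.44 to -0.94, and 5 of the 15 alternatives keep the adjusted p under the threshold. Where a library is left out its group holds a single library, so the color of that point has no replicate behind it there.

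In a mixed cell population, fewer cells of a type and less RNA per cell cannot be told apart. The summed marker genes of the enveloping layer, the outer epithelium of the embryo, had the opposite order to HSPA8. The 13 listed genes, 9 of them with UMIs, summed to 1982 and 2489 CPM in the β-catCA lots and 1143 and 840 CPM in the controls. Most of these UMIs came from krt8 (154) and krt18a.1 (75). krt8 rose (log2 difference 1.37, SE 0.35, edgeR adjusted p = 0.038, not called by DESeq2 or limma-voom), and krt18a.1 did not pass (0.77, SE 0.43, edgeR adjusted p = 0.54). The groups overlapped for krt4 (107 and 124 CPM against 161 and 32.9 CPM) and krt5 (76.2 and 0 CPM against 64.4 and 32.9 CPM). Of the listed genes cldnf, krt17, krt18b and krt1-19d were at 0. The 27 gastrula blastoderm genes summed to 7853 and 5601 CPM against 8823 and 9089 CPM. Among them, tbxta, otx2a and TFAP2A had 0 UMIs in the shallow β-catCA lot 2. Of the 15 tested, 12 had changes below 0, beside 51.8% of all tested genes. By edgeR none passed and 2 had an unadjusted p under 0.05, a threshold met by 10.5% of all tested genes. DESeq2 and limma-voom also called 0 of these markers. The part of these markers, and of the depth of β-catCA lot 2, in the HSPA8 difference was not tested; the difference without that lot is given above.

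The remaining Hsp70 genes were far below HSPA8, which held 92.2% of the 1147 UMIs of the cytosolic and nuclear Hsp70 class. HSPA12A, a distant Hsp70 relative, had counts of 5 and 1 in the β-catCA mosaics beside 10 and 11 in the control mosaics. In CPM these are 76.2 and 124 against 161 and 181. The row with 25 UMIs named HSPA4 (ENSDARG00000018989), an Hsp110-type exchange factor, had 10 and 2 UMIs against 5 and 8. Its levels were 152 and 249 CPM against 80.5 and 132 CPM. HSPA14, an Hsp70 bound to ribosomes, had 5 and 0 UMIs against 8 and 6, or 76.2 and 0 CPM against 129 and 98.8 CPM. A further row also named HSPA8 (ENSDARG00000037403) had 1 UMI. Reads of near-identical copies can be split or lost in counting, so the share of each Hsp70 row is uncertain.

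A few genes known for their induction by heat or misfolded protein had few or no UMIs. Over hsp70l, hsp70.1, hsp70.3, hspa1b, dnajb1a, dnajb1b and bag3, a set picked after the values were seen that leaves out abundant chaperones which stress also raises, such as HSPB1 and HSPD1, the summed UMIs were 2 and 1 in β-catCA mosaics and 3 and 5 in control mosaics. hsp70.3 held 9 of these 11 UMIs, and hsp70.1, hspa1b, dnajb1b and bag3 had 0. The hsp70 genes of this set were thus near the counting floor in both groups, in libraries where the constitutive gene had 10 to 451 UMIs. Of the heat shock factors, hsf1 had counts of 8 and 0 in β-catCA mosaics and 5 and 1 in control mosaics, HSF2 had 2 UMIs in total, and the negative regulator hsbp1b had 11.

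Cytosolic Hsp90, which finishes the folding of kinases and receptors, was present as both an alpha and a beta gene. HSP90AA1 had levels of 1952 and 2863 CPM in the β-catCA lots and 2608 and 2602 CPM in the controls. The groups overlapped, with a log2 difference of -0.23 (SE 0.26, edgeR adjusted p = 0.87) and an interval from -0.76 to 0.30. HSP90AB1 had levels of 1159 and 1618 CPM in the β-catCA lots and 676 and 906 CPM in the controls, without overlap. Its log2 difference was 0.68 (SE 0.32, edgeR adjusted p = 0.43), from 0.46 without control lot 1 to 1.01 without β-catCA lot 1. The muscle-type gene hsp90aa1.1 had 23 UMIs in all. The beta gene made up 37.3% and 36.1% of the UMIs of HSP90AA1 and HSP90AB1 in β-catCA mosaics and 20.6% and 25.8% in control mosaics; exact intervals were 30.6% to 44.3% in β-catCA lot 1, 20.8% to 53.8% in lot 2, and 20.1% to 32.2% in control lot 2, so only the first of these stands clear of control lot 1, which ended at 26.8%. This split was looked at after the values were seen, and no test was made.

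HSPB1 (ENSDARG00000041065) was the most abundant folding gene in every library. It had 13831 and 16804 CPM in the β-catCA lots and 8823 and 12004 CPM in the controls, so that both β-catCA lots were above both controls. The fitted log2 difference of 0.54 (SE 0.25) did not pass (edgeR adjusted p = 0.40). The control lots alone differed by more than their counting intervals, which ended at 9593 CPM in lot 1 and began at 11148 CPM in lot 2. Of the other small heat shock genes, HSPB8, which acts with Bag3 in clearing aggregates, had 13 UMIs and hspb11 had 1. HSPA8 made up 20.2% and 6.90% of the UMIs of HSPA8 and HSPB1 in β-catCA mosaics and 40.1% and 38.2% in control mosaics, a comparison within each library that needs no scaling factor. HSPA8 was lower and HSPB1 higher in the β-catCA lots, so this share joins both differences. The split was looked at after the values were seen, and no test was made. Without HSPB1 the folding genes summed to 31017 and 29749 CPM in the β-catCA lots and 36579 and 36242 CPM in the controls; without HSPA8 they summed to 41341 and 45309 CPM against 39493 and 40819 CPM.

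**Figure D3:**
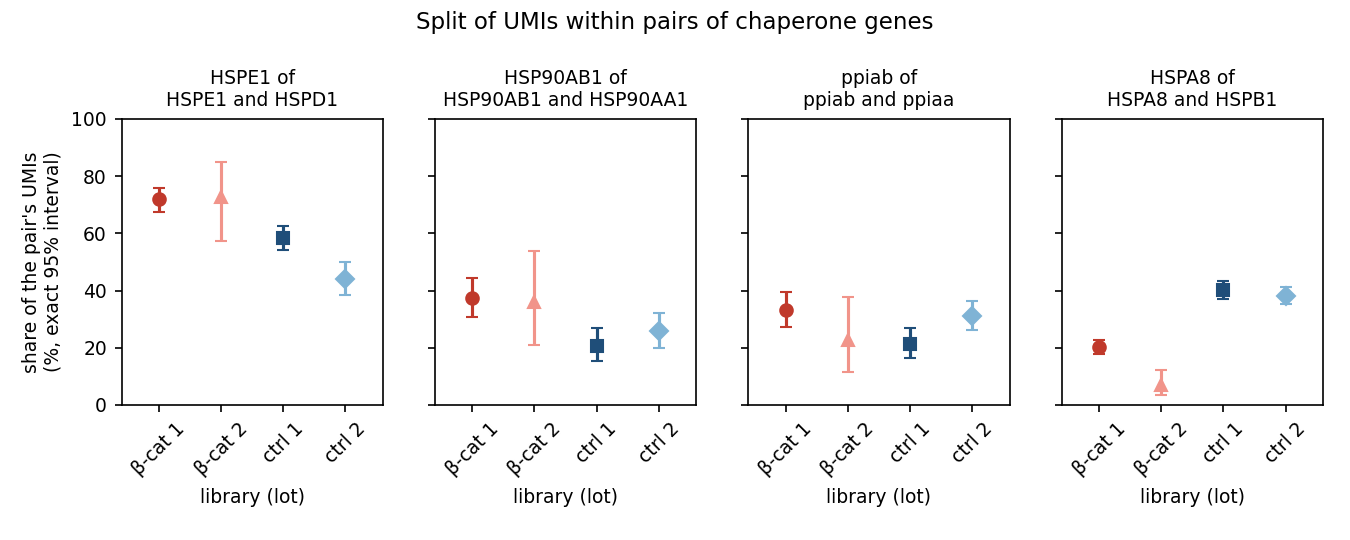
Share of the first gene in the summed UMIs of 4 gene pairs, with exact 95% binomial intervals, in each library. HSPE1 took over 71% of its pair in both β-catCA lots and under 59% in both controls, while the shares of ppiab overlapped between the groups.

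TRiC, the cytosolic chaperonin, is built from the products of TCP1 and the CCT genes, 1 copy of each in a ring. All 6 tested genes had fitted changes below 0 with a median of -0.49, and none passed. CCT6B (ENSDARG00000021252; the RefSeq table lists a cct6a but no cct6b for zebrafish) had levels of 1022 and 373 CPM in the β-catCA lots, from 67 and 3 UMIs, and 1723 and 1548 CPM in the controls. Both β-catCA lots were below both controls, and the log2 difference was -0.88 (SE 0.31, edgeR adjusted p = 0.23), with -0.69 without β-catCA lot 2. CCT8 had levels of 1022 and 622 CPM against 1175 and 1614 CPM, again without overlap, and a log2 difference of -0.57 (SE 0.31, edgeR adjusted p = 0.53). CCT7 (-0.56), CCT3 (-0.43), TCP1 (-0.30) and CCT4 (-0.14) had smaller log2 differences, with SE from 0.35 to 0.47. CCT4 rested on 1 UMI in β-catCA lot 2 and had a log2 difference of 0.11 without that lot, so all 6 changes below 0 hold only with it. CCT4 stood at 869 CPM in both β-catCA lot 1 and control lot 1.

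Although the complex holds its subunits in equal number, their RNA counts were unequal. Control means were 1635 ± 124 CPM (SD, n = 2) for CCT6B, 1394 ± 310 CPM for CCT8, 920 ± 72.2 CPM for CCT3, 797 ± 102 CPM for CCT4, 628 ± 183 CPM for CCT7 and 358 ± 17.3 CPM for TCP1. CCT6B and CCT8 did not differ beyond their spread, nor did CCT3 and CCT4 or CCT4 and CCT7, while TCP1 was below the other 5 in both control lots. CCT5 had 16 UMIs in all, and both rows named for CCT2 had 0. A 3′ count misses transcripts that end beyond the annotated gene, so a low or absent subunit does not show a missing RNA. Summed over the class, TRiC genes took 0.439% (exact 95% interval 0.390% to 0.493%) and 0.250% (0.155% to 0.382%) of gene UMIs in β-catCA mosaics and 0.573% (0.514% to 0.635%) and 0.614% (0.553% to 0.680%) in control mosaics. The intervals of the groups did not meet; they cover counting error only, and a sum over chosen genes was not tested.

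**Figure D4:**
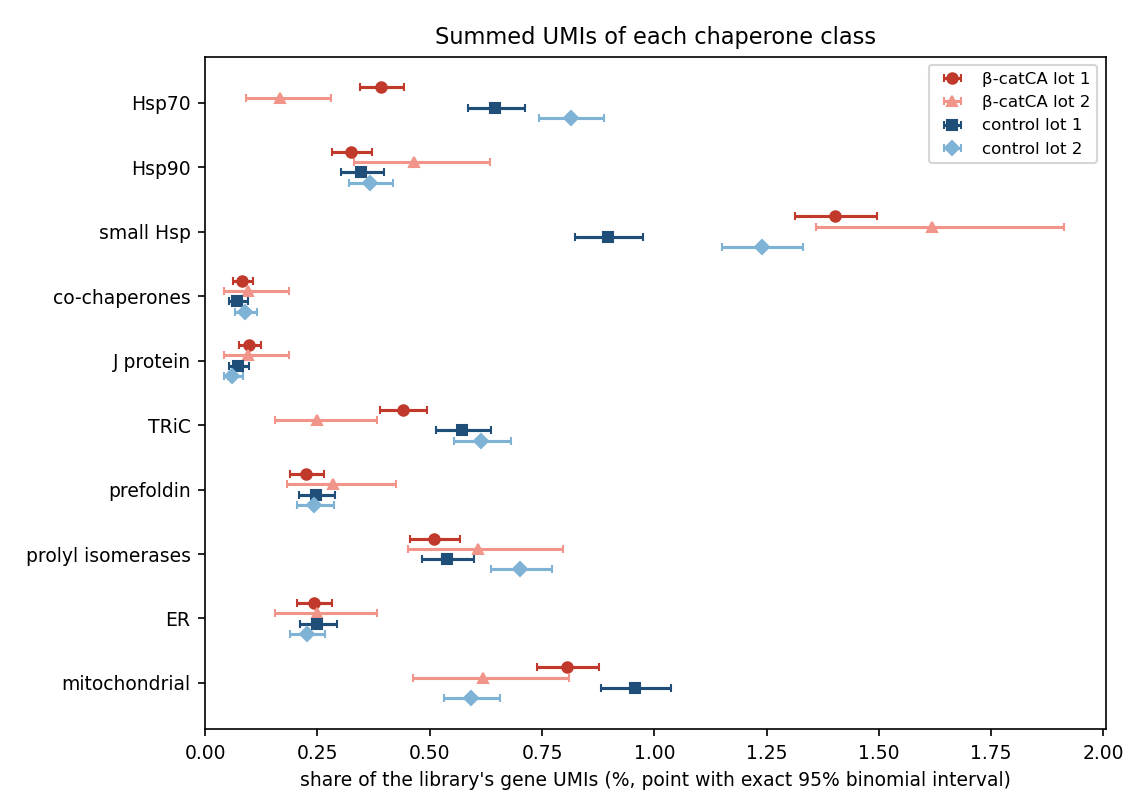
Share of each library's gene UMIs held by each chaperone class, with exact 95% binomial intervals that cover counting error only. The Hsp70 class, 92.2% of it HSPA8, and the TRiC class lie lower in both β-catCA lots, at 0.392% and 0.167% and at 0.439% and 0.250%, than in the controls. The points of the small heat shock class (1.40% and 1.62% against 0.897% and 1.24%) and the J protein class (0.0968% and 0.0952% against 0.0734% and 0.0607%) lie higher. In both of these classes, intervals of the groups meet. The J protein point of β-catCA lot 2 rests on 8 UMIs, with an interval from 0.041% to 0.188%. The ER and prefoldin classes lie between 0.224% and 0.286% in all 4 libraries. The prefoldin class holds the genes named PFDN only, without VBP1.

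The tested PFDN genes of prefoldin, the tubular carrier that hands actin and tubulin to TRiC, did not have a common direction. PFDN4 had levels of 1433 and 2116 CPM in the β-catCA lots and 1465 and 1317 CPM in the controls, with a log2 difference of 0.21 (SE 0.29, edgeR adjusted p = 0.88). PFDN2 had levels of 473 and 373 CPM against 773 and 873 CPM, with a log2 difference of -0.85 (SE 0.39, edgeR adjusted p = 0.40). Its groups did not overlap, but its value in the shallow lot rests on 3 UMIs. PFDN5 had 29 UMIs, PFDN1 had 12 and PFDN6 had 7. VBP1, the gene of prefoldin subunit 3, lies outside the symbol rule and is not in this class. It had 244 and 249 CPM against 177 and 198 CPM, from 16 and 2 UMIs against 11 and 12. Its log2 difference was 0.38 (SE 0.53, edgeR adjusted p = 0.88).

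The mitochondrial chamber genes HSPD1 (Hsp60, ENSDARG00000056160) and HSPE1 (Hsp10, its lid, ENSDARG00000056167) lie next to each other in the zebrafish RefSeq gene order (GRCz12tu). HSPD1 had levels of 1998 and 1494 CPM in the β-catCA lots and 3526 and 2766 CPM in the controls. Both β-catCA lots were below both controls, with a log2 difference of -0.76 and an SE of 0.26, short of the threshold (edgeR adjusted p = 0.20), and with values from -1.09 without β-catCA lot 1 to -0.60 without control lot 1. HSPE1 had levels of 5093 and 3983 CPM in the β-catCA lots and 4959 and 2174 CPM in the controls. Its groups overlapped, control lot 1 being 2.28 times control lot 2, and the log2 difference of 0.39 (SE 0.29, edgeR adjusted p = 0.71) became -0.10 without control lot 2 and 1.08 without control lot 1. HSPE1 made up 71.8% and 72.7% of the UMIs of the pair in β-catCA mosaics and 58.4% and 44.0% in control mosaics. Exact intervals were 67.5% to 75.9% in β-catCA lot 1 and 57.2% to 85.0% in lot 2, against 54.1% to 62.7% in control lot 1 and 38.3% to 49.8% in control lot 2. The shallow lot's interval thus reached that of control lot 1. This split was looked at after the values were seen.

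HSPA9, the mitochondrial Hsp70 that pulls proteins into the matrix, had levels of 762 and 996 CPM in the β-catCA lots and 902 and 774 CPM in the controls, with a log2 difference of -0.05 and an interval from -0.75 to 0.65. The other 7 mitochondrial genes had at most 6 UMIs each. Of a list for mitochondrial import and quality control, 26 rows had UMIs and 1 was tested: the import chaperone gene TIMM10 had a log2 difference of 0.21 (SE 0.73, edgeR adjusted p = 0.95). TOMM40, the import pore, had 27 UMIs and its partner TOMM22 had 23.

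In the ER, folding genes took 0.241% and 0.250% of gene UMIs in β-catCA mosaics and 0.250% and 0.226% in control mosaics. HSPA5 (BiP), the ER Hsp70 and main sensor partner of the unfolded protein response, had levels of 442 and 1120 CPM in the β-catCA lots and 596 and 659 CPM in the controls. The pair of β-catCA lots lay on either side of the controls, with 9 UMIs behind the high value. The fitted log2 difference was -0.15 (SE 0.41, edgeR adjusted p = 0.95), although the mean CPM had the other direction, and leaving out β-catCA lots 2 and 1 in turn gave -0.52 and 0.82. HSP90B1, the ER Hsp90, had levels of 457 and 622 CPM against 354 and 412 CPM, without overlap, and a log2 difference of 0.34 (SE 0.43, edgeR adjusted p = 0.87). DNAJC1, an ER membrane J protein, had a log2 difference of 0.65 (SE 0.54) from 37 UMIs, and the disulfide isomerase PDIA6 of -0.15 (SE 0.53) from 48. The calreticulin gene calr3b had counts of 15 and 0 in β-catCA mosaics and 22 and 5 in control mosaics, so the control lots spread as widely as the groups. CANX, the calnexin gene, had 13 and 1 UMIs against 5 and 6, or 198 and 124 CPM against 80.5 and 98.8 CPM. In total calr3a had 20 UMIs, FKBP9 had 19, PPIB had 15, FKBP2 had 12 and DNAJC10 had 12.

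Genes of the unfolded protein response and of ER translocation, listed beside the folding genes, had 9 tested members of 49 with UMIs. None passed in either direction (edgeR, 0 at an unadjusted p under 0.05; 0 also by DESeq2 and limma-voom), 3 had changes above 0 and 6 below, and the median was -0.18. XBP1, the transcription factor of this response, had a log2 difference of -0.25 (SE 0.43, edgeR adjusted p = 0.91). The translocon partners SSR4 and SSR2 had log2 differences of 0.86 (SE 0.43, edgeR adjusted p = 0.48) and -0.42 (SE 0.45, edgeR adjusted p = 0.83).

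J proteins were sparse: 17 cytosolic and nuclear genes held 152 UMIs, and 1 was tested. DNAJA2 (ENSDARG00000104066), which stimulates Hsp70, had levels of 427 and 622 CPM in the β-catCA lots and 306 and 263 CPM in the controls. Its groups did not overlap, and the log2 difference of 0.69 (SE 0.45) did not pass (edgeR adjusted p = 0.65). DNAJC7 had 17 UMIs and DNAJC2, a J protein at the ribosome, had 13. Among co-chaperones, bag6, which guards membrane proteins on their way to insertion, had levels of 290 and 249 CPM against 338 and 198 CPM, with a log2 difference of 0.08 (SE 0.50, edgeR adjusted p = 0.97). ptges3l, a relative of the Hsp90 partner p23, had levels of 152 and 498 CPM against 80.5 and 198 CPM, with a log2 difference of 0.51 (SE 0.64, edgeR adjusted p = 0.87) and a value of 0.12 once β-catCA lot 2 is left out. The p23 rows named PTGES3 had 21 and 11 UMIs, STIP1, which bridges Hsp70 and Hsp90, had 14, and PPID had 13.

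Cytosolic prolyl isomerases, which turn the peptide bond before proline, were led by cyclophilin A from a gene pair. ppiaa had levels of 2501 and 4232 CPM in the β-catCA lots and 3220 and 3804 CPM in the controls, with a log2 difference of -0.19 (SE 0.25, edgeR adjusted p = 0.87). ppiab had levels of 1235 and 1245 CPM against 869 and 1729 CPM, with a log2 difference of -0.07 (SE 0.31, edgeR adjusted p = 0.96). In ppiab the controls lay on either side of the β-catCA lots, and its 10 UMIs in β-catCA lot 2 mean that the close pair does not show close replicates. PPIG, a nuclear cyclophilin tied to splicing, and fkbp1aa, an FKBP12 gene, had log2 differences of 0.24 (SE 0.38) and -0.25 (SE 0.42). PPIH had 19 UMIs, FKBP8 had 16 and PPIE had 12.

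**Figure D5:**
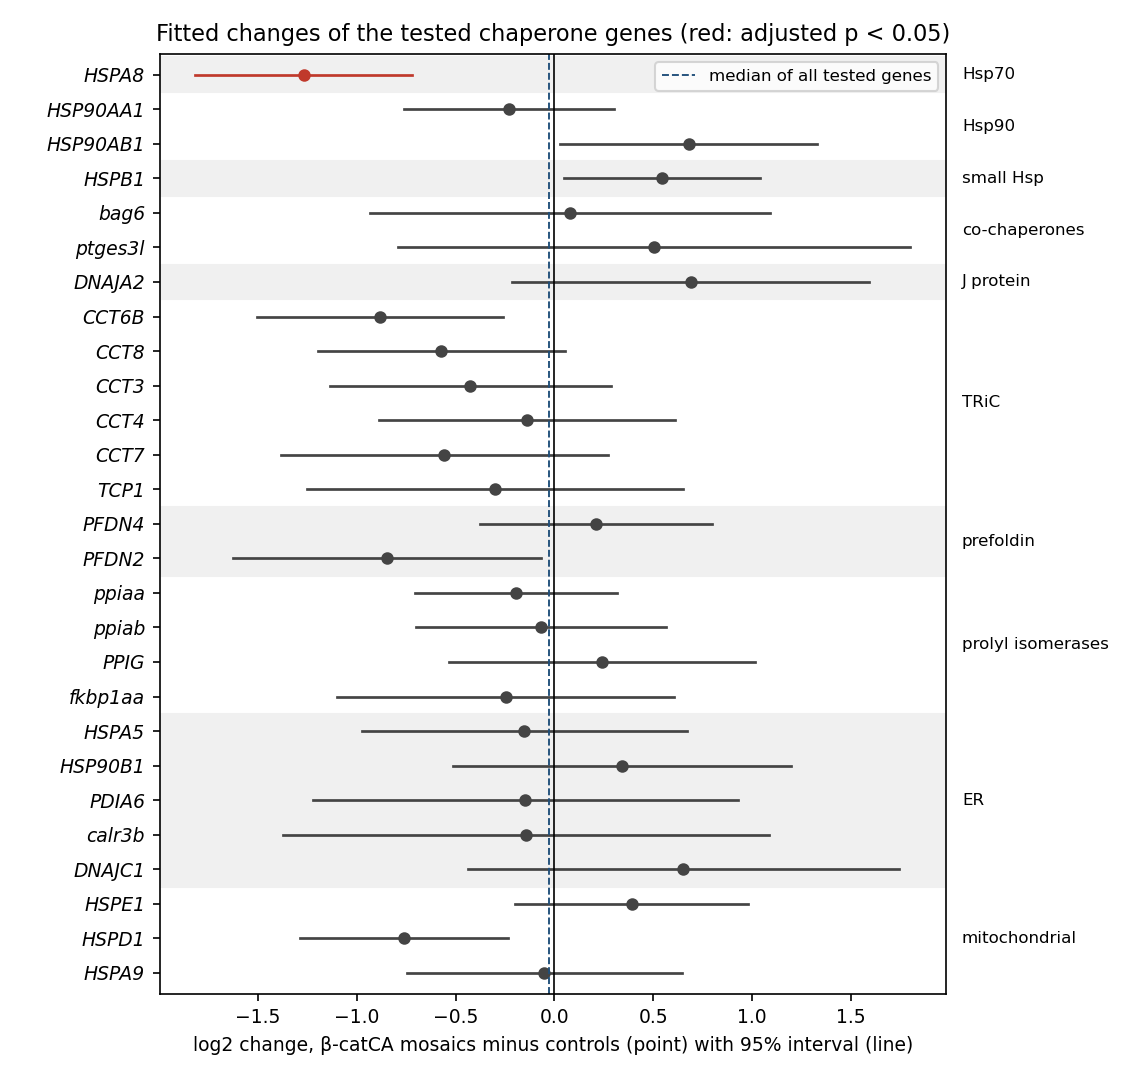
Fitted log2 difference (β-catCA minus control) of the 27 tested folding genes with its 95% interval, grouped by class; the dashed line is the median of all 1071 tested genes at -0.03. HSPA8 at -1.27 is the 1 gene in red, with an adjusted p under 0.05, and the 6 TRiC points lie below 0, between -0.88 and -0.14, although CCT4 is at 0.11 without β-catCA lot 2.

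For the 69 genes with too few UMIs a fit on all 8640 genes was used, where 0 of them passed (edgeR, 2 at an unadjusted p under 0.05, FKBP2 and DNAJC15; DESeq2 called 0 of the 96 folding genes). Background shares in that fit were 0% at the adjusted and 2.55% at the unadjusted threshold. DNAJC15 had 4 UMIs, all in β-catCA lot 1, and FKBP2 had counts of 1 and 0 in β-catCA mosaics and 7 and 4 in control mosaics. A list of chaperone and related genes outside the symbol rule also holds histone chaperones (NASP, npm1a, npm1b) and an import receptor (TOMM20). It had 11 tested rows of 38 with UMIs. None passed (edgeR, 0 at an unadjusted p under 0.05; 0 also by DESeq2 and limma-voom), with 6 changes above 0, 5 below and a median of 0.05. BTF3, part of the nascent chain complex at the ribosome, had a log2 difference of -0.0021 (SE 0.34), the unfolding ATPase VCP of 0.50 (SE 0.39) and RUVBL1, of the R2TP co-chaperone, of -0.13 (SE 0.43); by edgeR the adjusted p-values were 0.995, 0.72 and 0.95.

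Order by level in the controls ran from HSPB1 at 10413 ± 2249 CPM (SD, n = 2) and HSPA8 at 6667 ± 1073 CPM to ptges3l at 139 ± 82.8 CPM. HSPE1 (3566 ± 1969 CPM), ppiaa (3512 ± 413 CPM) and HSPD1 (3146 ± 537 CPM) followed and did not differ from each other beyond their spread. In the β-catCA mosaics HSPB1 stayed in front at 15318 ± 2102 CPM. HSPE1 (4538 ± 785 CPM), ppiaa (3367 ± 1224 CPM) and HSP90AA1 (2407 ± 644 CPM) had means above that of HSPA8 (2376 ± 1600 CPM). The means of ppiaa and HSP90AA1 lie within the spread of HSPA8. These orders rank 3′ counts, with the limits on comparing different genes given above. The tested folding genes had a median absolute log2 difference of 0.24 between the control lots, beside 0.38 over all tested genes with UMIs in both. The sets were not matched for level, on which counting error depends, so these medians do not show steadier folding genes.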

How the data were processed

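The deposited values are raw UMI counts, whole numbers for each Ensembl gene and library. Per the submitters' processing notes, the tools were Bowtie2 2.3.1 and HTSeq 0.6.1, with genome build GRCz10. Library preparation was CEL-Seq2 from TRIzol-extracted RNA, per the labels' protocols. The sources used here do not give UMI length, the rule for collapsing UMIs, strand handling or annotation release. Of the counts, 52.4% to 58.3% a library were in 5 rows that are no genes, which were left out. Symbols came from a table that named 8225 of the 8640 genes with a UMI; 10 member rows share a symbol with another row.

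Genes were tested with edgeR 4.0.16 (R 4.3.3): filterByExpr with a minimum count of 10, TMM factors, robust quasi-likelihood fit, Benjamini-Hochberg adjustment over 1071 genes at 0.05. The alternatives were limma 3.58.1 on the same genes and DESeq2 1.42.0 without this filter, on all 8640 genes with a UMI. CPM are TMM-scaled, while shares and their intervals use all gene UMIs of a library. Single values were not ranked, since an exact two-sided permutation test of 2 against 2 cannot go below 0.333. A count of 0 allows up to 3 UMIs: 45.7, 373.4, 48.3 and 49.4 CPM in β-catCA lots 1 and 2 and control lots 1 and 2. Libraries of a group were not copies (chi-square over its degrees of freedom 2.39 for β-catCA, 1.75 for control). The procedure was tested on simulated data.

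Members, classes and lists were chosen with earlier results of these data known. Every tested member is named; full values are given for called genes, the top 2 of a class by UMIs and the 6 smallest p. Untested members are named from 10 UMIs on, up to 6 a class.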

Additional observations from a re-analysis of the deposited data

Results flagged for a closer look

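Unaligned tags made up 35.8% of everything counted in β-catCA lot 2. The control lots had 21.1% and 22.9% and β-catCA lot 1 had 19.9%, so the unaligned share of β-catCA lot 2 was above that of the controls. All rows that are no genes together held 58.1% in β-catCA lot 2, between control lots 1 and 2 (57.7% and 58.3%), and 52.4% in β-catCA lot 1. Every folding gene value of β-catCA lot 2 rests on its 8403 gene UMIs, and the part of the unaligned share in the differences was not tested.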

How the results depend on the processing

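The count of 9 calls over all genes became 1 with upper-quartile factors, 2 with library totals alone, 0 without the filter (edgeR, 220 at an unadjusted p under 0.05), 2 with a stricter filter (10 counts in all libraries of a group), 1 by DESeq2, 2 by limma-voom, 1 with libraries thinned to 8403 UMIs and 2 with counts corrected for collisions of an assumed 6-base UMI; leaving out single libraries gave 1 (without control lot 2) to 15 (without β-catCA lot 2). The count of folding genes called, 1, became 0 under each of these 8 settings, with 2 to 6 folding genes at an unadjusted p under 0.05, and ran from 0 to 1 without single libraries. HSPA8 was below 0 in all 15 alternatives and passed in 5 of them. These were DESeq2 size factors, the replicate block, without the most abundant row, without β-catCA lot 1 and without control lot 1. Without β-catCA lot 1 or control lot 1 a group holds a single library, so those passes lack a replicate in it. Lot numbers do not pair the samples in the labels, and the lot differences of the groups had r = -0.0061 across 1071 genes; with the replicate block 2 genes passed, HSPA8 among them (edgeR adjusted p = 0.037).

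Signs turned in 31 values of single tested genes, none of them called, while 343 kept their direction and side of the threshold and 10, all of HSPA8, kept the direction and no longer passed. bag6 was -0.095 without the filter, -0.15 by DESeq2 and -0.13 with the replicate block, and -0.26 to 0.50 without single libraries. ppiab was 0.0022 with upper-quartile factors, 0.045 with the stricter filter, 0.028 by limma-voom, 0.14 with the replicate block and 0.083 when thinned, and -0.50 to 0.50 without single libraries. HSPA9 was 0.011 with upper-quartile factors and 0.062 with the stricter filter, and -0.16 to 0.23 without single libraries. When thinned, HSP90AA1 was 0.13 and ppiaa 0.071; without single libraries they ran from -0.43 to 0.12 and from -0.50 to 0.25. With the replicate block HSPA5 was 0.032 and PDIA6 0.0087; without single libraries they ran from -0.52 to 0.82 and from -1.02 to 0.24. PPIG was -0.0070 by DESeq2 and PFDN4 -0.031 without the filter. Without single libraries PPIG ran from -0.11 to 0.29, ptges3l from -0.060 to 1.81, CCT4 from -2.67 to 0.11, calr3b from -6.28 (where it had 0 UMIs in the lone β-catCA lot, so that value depends on the prior count) to 1.21, and HSPE1 from -0.10 to 1.08. The log2 ratio of the summed mean CPM of all folding genes, -0.035, was 0.10 with upper-quartile factors and -0.090 with library totals alone. The cause of these shifts was not tested. As for depth, 9 of the 27 tested genes had at most 3 UMIs in β-catCA lot 2.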
